A study of Rattus norvegicus with 90 samples.

Results

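The mitosis and spindle genes described here are 40 genes of the G2 and M phases of the cell cycle, chosen by symbol, and each is represented by its probe with the highest mean level. Of these, 33 had a named probe on the array among 13337 named genes and 22523 probes. No probe carried the symbol of Pttg1, Espl1, Cenpe, Birc5, Anln, Top2a or Mki67, so these 7 have no value here, among them the decatenating enzyme Top2a and the proliferation marker Mki67. Of the measured genes, only Kif11 had a second probe.

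The arrays measured total RNA of AR42J, a line from a rat pancreatic acinar tumour that carries the receptor for the stomach peptide gastrin, and the comparisons ask how expression follows gastrin over time and what happens when cycloheximide blocks protein synthesis. All cells were AR42J. Control cells were untreated, and the other groups received gastrin, cycloheximide, or gastrin and cycloheximide, at doses not given in the sources used here. There were 35 control, 34 gastrin, 9 cycloheximide and 10 gastrin and cycloheximide arrays, and 2 further arrays at 12 h have no group because their labels contradict each other. Batches 2 and 3 ran from 0 to 14 h with control and gastrin, batch 1 held 14 h alone, and batches 4 and 5 held all 4 stimuli at 1, 2, 4 and 6 h and batch 6 at 4 h alone. Levels and differences are on the deposited log2 scale, errors are standard errors of the limma fit, n counts pairs of one batch and time, and a gene was called at a Benjamini-Hochberg adjusted p under 0.05 over all probes. The pairs come from at most 6 batches. No label calls the batches separate cultures, so the p-values cover only variation between the arrays at hand, part of which can be technical. On this bulk RNA, fewer cells in mitosis and less RNA per cell cannot be told apart.

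In dividing cells, the kinase Cdk1 with cyclins A and B drives entry into mitosis. Spindle and kinetochore proteins then attach the chromosomes, the spindle checkpoint holds the anaphase promoting complex until attachment is complete, and that complex with Cdc20 has cyclin B and securin degraded. The messages of these genes are low after division and accumulate in G2. In human and mouse cells, many of their promoters carry CCAAT boxes, bound by NF-Y, and a CHR element, bound by the DREAM and MuvB complexes.

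Promoter windows from 250 bases before to 50 bases after the start were taken from RefSeq (build GRCr8), where 35 of the 40 genes had one. They were searched on both strands for CCAAT and, as CHR letters, for TTTGAA and TTCGAA. The box CCAAT was present in 26 of the 35, or 74.3%, against 37.5% of all 33469 promoters. A CHR match was also in 26 of 35, against 19.7% of all promoters. Both kinds of match were in 21 (60.0%), against 7.95% of all, and in 2 member promoters the matches overlapped. Among further mitosis genes 37 of 72 promoters held both (51.4%), and among DNA replication genes 4 of 38 did (10.5%). A match describes these letters and is not a shown binding site. The promoters of 5 genes named in the comparisons below that hold both kinds of match are printed 5′ to 3′ up to 30 bases after the start, with capitals marking CCAAT or its complement ATTGG and the CHR letters or their complement.
Ccnb2: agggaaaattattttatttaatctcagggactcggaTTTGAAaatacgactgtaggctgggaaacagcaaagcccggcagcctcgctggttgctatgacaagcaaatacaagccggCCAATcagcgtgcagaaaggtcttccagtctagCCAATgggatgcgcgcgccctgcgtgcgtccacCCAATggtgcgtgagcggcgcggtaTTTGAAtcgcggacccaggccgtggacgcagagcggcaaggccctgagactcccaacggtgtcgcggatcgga
Cdk1: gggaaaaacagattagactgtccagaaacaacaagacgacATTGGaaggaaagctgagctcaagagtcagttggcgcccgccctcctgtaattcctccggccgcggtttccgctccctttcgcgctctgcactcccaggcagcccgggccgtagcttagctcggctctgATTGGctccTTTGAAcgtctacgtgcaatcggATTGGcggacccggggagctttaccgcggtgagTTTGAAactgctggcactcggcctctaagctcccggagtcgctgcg
Plk1: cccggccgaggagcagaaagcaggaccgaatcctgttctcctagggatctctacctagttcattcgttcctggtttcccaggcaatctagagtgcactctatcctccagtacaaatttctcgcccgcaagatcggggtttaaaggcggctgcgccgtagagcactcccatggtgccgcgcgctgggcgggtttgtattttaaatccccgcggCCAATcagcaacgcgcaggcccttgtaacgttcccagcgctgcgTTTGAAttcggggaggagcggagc
Cdc20: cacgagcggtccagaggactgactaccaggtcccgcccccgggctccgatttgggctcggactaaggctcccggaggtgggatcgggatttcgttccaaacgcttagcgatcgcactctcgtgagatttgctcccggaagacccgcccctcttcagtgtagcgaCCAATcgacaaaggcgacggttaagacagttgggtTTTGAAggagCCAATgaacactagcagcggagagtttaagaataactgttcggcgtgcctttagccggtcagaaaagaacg
Cdc25b: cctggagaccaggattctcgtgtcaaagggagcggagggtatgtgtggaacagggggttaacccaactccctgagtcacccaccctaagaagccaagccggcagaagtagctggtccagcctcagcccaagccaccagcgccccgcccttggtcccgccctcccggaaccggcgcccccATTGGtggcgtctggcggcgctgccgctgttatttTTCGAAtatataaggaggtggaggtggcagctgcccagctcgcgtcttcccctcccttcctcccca
These windows lie at chr8:79981629-79981908 on the minus strand for Ccnb2, chr20:19265043-19265322 on the plus strand for Cdk1, chr1:186147408-186147687 on the plus strand for Plk1, chr5:137255770-137256049 on the minus strand for Cdc20 and chr3:138859923-138860202 on the plus strand for Cdc25b. In the Ccnb2 window, CCAAT begins 134, 101 and 68 bases before the start and TTTGAA 214 and 43 bases before it. Cdk1 has ATTGG 210, 81 and 49 bases and TTTGAA 72 and 16 bases before the start. Plk1 has one CCAAT 38 bases before the start and TTTGAA 6 bases after it. Cdc25b has the variant TTCGAA, 36 bases before the start, with ATTGG 71 bases before it. Not every gene named below has these letters: the Bub1b window has 2 CHR matches and 0 CCAAT, that of Cdca3 3 CCAAT and 0 CHR, and that of Aurka neither. The windows of Aurkb, Racgap1, Tpx2, Ube2c and Ccna2 were not in the table.

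The mitotic genes were well above the median probe in these cells. Averaged over all arrays, the levels of the 33 genes ran from 6.29 to 11.86 with a median of 9.38, and the median probe of the array was at 6.40. Ccnb2, one of the cyclins B, was highest, followed by Cdk1 at 11.46, the Cdk1 partner Cks2 at 11.21, the ubiquitin conjugating enzyme Ube2c at 11.01 and the spindle assembly factor Tpx2 at 10.99. The probe of Ccnb1, the other cyclin B, was the dimmest at 6.29, below the median probe, and the phosphatase gene Cdc25c was at 6.44. Levels of different probes are not comparable as amounts of RNA. Acinar enzyme and transcription factor genes had a median level of 11.59, with 17 of 22 above the 75th percentile of probes. The defining genes of stromal cells and of immune and endothelial cells had median levels of 6.05 each, with the highest, Des and Cd3g, at 6.40 and 6.45. Those 2 marker lists were at the level of dim probes, and 0 of their members were called in the comparisons of gastrin with control. With cycloheximide 1 stromal gene was lower at 1 and 2 h and 1 immune or endothelial gene higher at 4 and 6 h.

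The course of the mean level of the 33 genes shows that control cells themselves changed with time in the long batches.

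**Figure D1:**
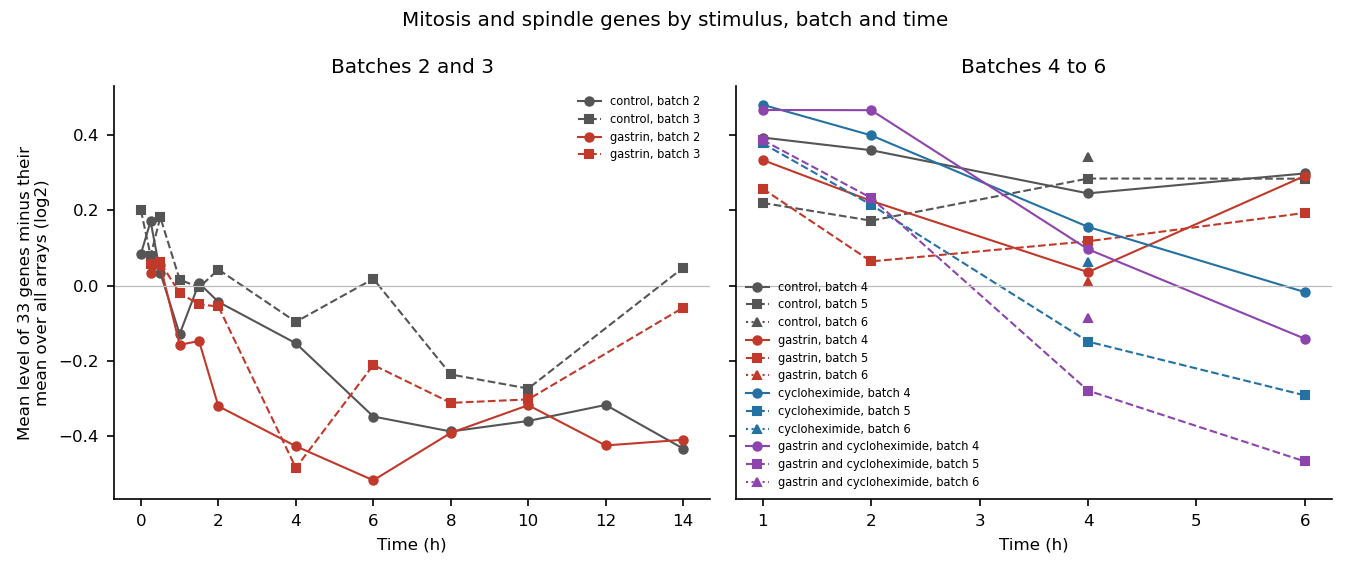
Mean level of the 33 mitosis and spindle genes, each relative to its own mean over all arrays (log2), against time in hours, for each batch (symbol and line type) and stimulus (colour); arrays of one batch, stimulus and time are averaged. Control cells of batches 2 and 3 declined between 0 and 10 h, gastrin cells lay below their own control in all 5 batches at 4 h, and with cycloheximide the level fell from 1 to 6 h in batches 4 and 5.

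In untreated cells the program declined with time. At 8, 10 and 14 h, 27 of 33 genes were lower and 0 higher than at 0, 0.25 and 0.5 h in batches 2 and 3, against 6.64% of all probes called lower and 5.78% higher. Their median difference was -0.42, and that of all probes was near 0 at -0.0014. The declines covered the whole machinery: 4 of 4 spindle checkpoint genes, 3 of 3 of the anaphase promoting complex group, 4 of 4 kinetochore genes, 6 of 6 motor and spindle genes and 4 of 4 midzone and cytokinesis genes fell, beside 2 of 3 mitotic kinases, 1 of 2 chromosomal passenger genes and 3 of 7 in the group of cyclins, Cdk1 and their regulators.

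Ccnb2 was at 12.20, 12.32 and 12.10 at 0, 0.25 and 0.5 h in batch 2 and at 12.22, 12.04 and 12.25 in batch 3. At 8, 10 and 14 h it was at 11.36, 11.28 and 11.12 in batch 2 and at 11.67, 11.65 and 11.70 in batch 3. All late arrays were below all early ones, and the fall was -0.72 ± 0.09 (SE, limma adjusted p = 1.14e-05, a ratio of 1.65 if the scale is a plain log2). Plk1, the polo kinase of mitotic entry, went from 9.55, 9.69 and 9.45 in batch 2 and 9.50, 9.47 and 9.65 in batch 3 to 8.83, 8.73 and 8.69 and to 8.99, 8.78 and 8.96. Its groups did not overlap either, and the fall was -0.72 ± 0.07 (adjusted p = 2e-06 in limma). Cenpf, a kinetochore protein that accumulates in G2, fell by 0.68 on the log2 scale with a standard error of 0.07.

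In batch 3 most of the decline was gone on the single control array at 14 h. The mean over the 33 genes was below the mean of its early arrays by -0.39 at 8 h and -0.43 at 10 h and by -0.11 at 14 h, where 19 genes were at or above their lowest early value, against 4 and 3 at 8 and 10 h. In batch 2 the mean was at -0.53 at 14 h, and 3 genes reached their lowest early value. The share of all probes that reached their lowest early value is not given here. These counts are therefore not shown to be particular to the mitotic genes. Cdk1 is one of the 19. It was at 11.63, 11.71 and 11.43 early and 11.16, 11.11 and 11.03 late in batch 2, and at 11.67, 11.49 and 11.89 early and 11.22, 11.21 and 11.74 late in batch 3. The 14 h array of batch 3 lay among the early values, and the fall over both batches was -0.39 ± 0.09 (limma adjusted p = 0.00372). Ccnb1 did not pass, with a difference of 0.02 ± 0.05 on its dim probe.

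At 4 and 6 h, 17 genes were already lower and 0 higher against the start (2.18% of probes lower and 1.85% higher), with a median difference of -0.28. With the array score described below as a covariate, 0 passed there in limma, and without the block 5 did. At 1, 1.5 and 2 h limma called 0 genes, with 12, 4 and 9 at an unadjusted p under 0.05 (0.0178%, 0.0533% and 0.253% of probes lower). At 4 and at 6 h, tested one at a time, 3 genes each were lower (0.413% and 0.808%). At 8 and at 10 h 24 genes each were lower (2.52% and 2.71% of probes). At 12 h, a single array of batch 2, 13 were lower (2.5%), and at 14 h 15 were (4.14%). Averaged over the 3 late times, both batches were lower, with 31 of 33 differences below 0 in batch 2 (median -0.49) and 32 in batch 3 (median -0.35). The shorter courses of batches 4 and 5 cover 1 to 6 h alone and cannot be set against that window. Between 1 and 6 h, without a test, 19 genes were lower in batch 4 (median -0.07) and 12 in batch 5 (median 0.09). Their 1 h controls average arrays with and without a running number in the title, and those at 6 h all have one. Over the same hours the mean control level of the 33 genes, relative to all arrays, went from -0.13 to -0.35 in batch 2. In batch 3 it went from 0.016 to 0.018. In the same untreated comparison at 8 to 14 h, 7 of 22 acinar genes were higher and 1 lower, and what this shift has to do with the mitotic genes was not tested.

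With gastrin the mitotic genes were below their own controls at 4 h. With limma, 23 of 33 genes were lower and 0 higher at 4 h (n = 5 pairs), against 3.47% of all probes called lower and 3.48% higher, and 31 of 33 differences were below 0. The median difference was -0.27, and that of all probes was -0.0025. The 4 h arrays of batches 4 to 6 are 14 of the 18 arrays whose titles carry no running number, with array scores (defined with the early results below) from -0.60 to -0.25, and their pairs lie within that series. In all 5 batches 22 genes were lower than their control, as were 8.49% of probes. The mean difference over the 33 genes was -0.27, -0.39, -0.21, -0.17 and -0.33 in batches 2 to 6. Lowered genes came from every group except the chromosomal passenger complex: 4 of 7 cyclins, Cdk1 and regulators, 3 of 3 mitotic kinases, 2 of 4 checkpoint genes, 3 of 3 of the anaphase promoting complex group, 3 of 4 kinetochore genes, 5 of 6 motor and spindle genes and 3 of 4 midzone and cytokinesis genes.

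Prc1, which bundles microtubules of the spindle midzone, had the largest fall. Its controls were at 10.02, 10.18, 11.13, 11.09 and 10.90 in batches 2 to 6, and its gastrin samples at 9.60, 9.45, 10.90, 10.85 and 10.06. Every gastrin value was below the control of its own batch, while the groups overlap between batches, whose controls differ by more than gastrin changed the gene. The difference was -0.49 ± 0.08 (SE, n = 5, limma adjusted p = 0.000108).

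Cdk1 was at 11.31, 11.34, 11.82, 12.11 and 11.90 in controls and at 10.94, 10.81, 11.73, 11.68 and 11.02 with gastrin. It fell by 0.46 on the log2 scale with a standard error of 0.09 (limma adjusted p = 0.000448), lower in 5 of 5 pairs, by least in batch 4 and most in batch 6. Ccnb2 was at 11.70, 12.08, 11.997, 12.11 and 12.24 in controls and at 11.40, 11.37, 11.71, 11.82 and 11.73 with gastrin. Its difference was -0.42 ± 0.08 (limma adjusted p = 0.000917), and again all 5 pairs were lower.

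Cdca3, which acts in the degradation of the Cdk1 inhibitor kinase Wee1, fell from 8.34, 8.41, 8.91, 8.90 and 9.35 in controls to 7.82, 7.80, 8.83, 8.69 and 8.55, a difference of -0.45 ± 0.08. Ttk, the checkpoint kinase Mps1, went from 9.33, 9.54, 9.93, 10.05 and 10.22 to 8.99, 8.83, 9.58, 9.74 and 9.83, a difference of -0.42 ± 0.07. Both were lower in every pair, with limma adjusted p of 0.000518 and 6.13e-05.

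Plk1 was at 9.12, 9.04, 9.14, 8.99 and 8.51 in controls and at 8.88, 8.70, 8.69, 8.96 and 8.22 with gastrin, a difference of -0.27 ± 0.07 (limma adjusted p = 0.00907). In batch 5 its 2 values nearly coincided. Ccnb1 was at 6.50, 6.23, 6.08, 6.16 and 6.09 in controls and at 6.49, 6.45, 6.24, 6.14 and 6.17 with gastrin. Its pairs went both ways, and the difference was 0.08 ± 0.07 (limma adjusted p = 0.7). Ccnb1 and Cdc25c (0.05 ± 0.05) were the only genes whose fitted difference at 4 h was above 0, and both have probes near the median level of the array.

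**Figure D2:**
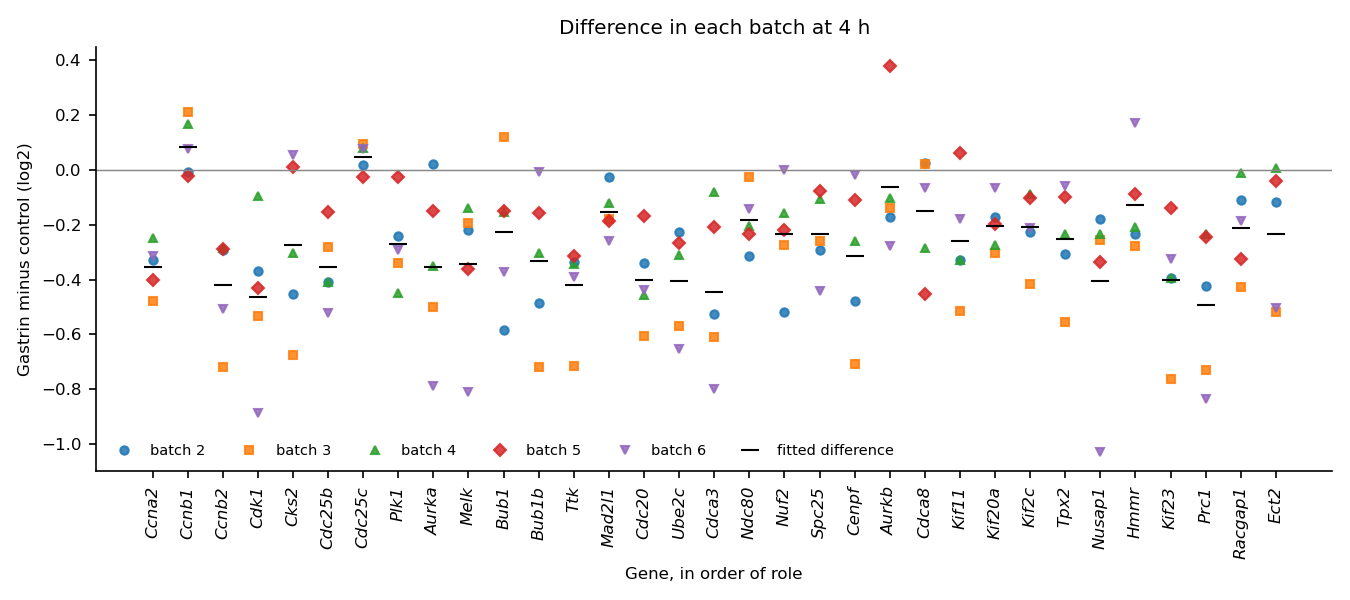
Gastrin minus control at 4 h (log2) in each of the 5 batches (symbols) for the 33 genes in order of role, with the fitted difference as a black bar. Of the 33 genes, 22 lie below 0 in every batch. The others, among them Ccnb1, Cdc25c, Aurkb, Bub1 and Hmmr, have pairs on both sides of 0.

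The 4 h result depended on pairing each gastrin sample with its own control: without the block of batch and time 0 of 33 genes passed, and with batch as an additive term 10 did. Without batch 2 the count at 4 h was 13 and without batch 3 it was 10. These counts are given without the share of all probes called in the same fits. The drop in calls is therefore not shown to be particular to the mitotic genes.

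At other times fewer mitotic genes passed, and each of these times had fewer pairs than 4 h. At 0.25, 0.5 and 1 h (n = 2, 2 and 4 pairs) limma called 0 genes, with 3, 0 and 7 at an unadjusted p under 0.05 (0%, 0.00444% and 0.568% of probes lower). At 1.5 h, with 2 pairs, 5 genes were lower (3.26% of probes lower), led by Bub1b, a checkpoint kinase, at 7.99 and 8.27 with gastrin in batches 2 and 3, below its controls by -1.01 and -0.45. The fitted difference was -0.73 ± 0.15 (n = 2, limma adjusted p = 0.00671), and the others were Cdc20, Cenpf, Kif20a and Mad2l1, between -0.38 and -0.31. Without batch 2 or without batch 3 the count at 1.5 h was 0, and it was 0 with the array score described below as a covariate.

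At 2 h 8 genes were lower (2.06% of probes): the kinases Aurka and Plk1, the cyclin Ccna2, Ube2c, Cenpf, Cdc20, Kif20a and Racgap1. Plk1 was at 9.33, 9.34, 9.40 and 9.02 in the controls of batches 2 to 5 and at 8.71, 9.14, 8.78 and 8.69 with gastrin, lower in 4 of 4 pairs by -0.44 ± 0.07 (limma adjusted p = 0.000421). At 2 h, 2 genes passed without batch 2, 3 without batch 3 and 5 without batch 4, and 12 passed with the array score as a covariate.

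At 6 h Ccnb2 and Cenpf were lower (2.13% of probes), by -0.45 ± 0.09 and -0.32 ± 0.08 in limma, with 4 of 4 pairs lower for each. Without batch 2 or 3 neither passed at 6 h. The mean difference over the 33 genes at 6 h was -0.17 and -0.23 in batches 2 and 3, with 29 and 32 genes lower. In batches 4 and 5 it was -0.006 and -0.09, with 18 and 21 genes lower. At 8 and 10 h (n = 2 pairs each) limma called 0 genes, with 1 and 5 at an unadjusted p under 0.05 (0.249% and 0.941% of probes lower).

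Averaged over 4, 6 and 8 h, 16 genes were lower and 0 higher (5.33% of probes lower and 4.98% higher), with a median of -0.16. Ccnb2 (-0.32 ± 0.06, n = 11) and Cdca3 (-0.30 ± 0.06) were lower in 11 of 11 pairs and Ttk (-0.25 ± 0.05) in 10, with limma adjusted p of 0.000368, 0.000777 and 0.000371. Cdk1 was at -0.23 ± 0.06 with an adjusted p of 0.0121. Without the block 0 passed, with batch as an additive term 4, without batch 2 the count was 3 and without batch 3 it was 0.

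Averaged over 0.5 to 2 h, 7 genes were lower and 0 higher (4.53% of probes lower and 4.68% higher), with a median of -0.08. They were led by Bub1b (-0.29 ± 0.07, n = 12), Cenpf (-0.26 ± 0.05) and Cks2 (-0.22 ± 0.07). Here an axis of expression that sets some arrays apart moved with gastrin. The array score that measures it was high in the gastrin arrays of batches 2 and 3 at 1, 1.5 and 2 h, and at 2 h in the controls of batches 4 and 5. In the fit without such arrays 0 members passed, with Bub1b at -0.04, Cenpf at -0.12 and Cks2 at -0.01, and with the score as a covariate 3 passed. No pair at 1.5 or 2 h is free of such arrays. Leaving out batch 2 left 1 gene and leaving out batch 3 left 0, while 12 passed without batch 4 and 14 without batch 5. The part of the score in the early result was otherwise not tested. No control or gastrin array between 4 and 8 h had a high score, and at 4 h the count was 22 with the score as a covariate and 25 without the arrays of high score.

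**Figure D3:**
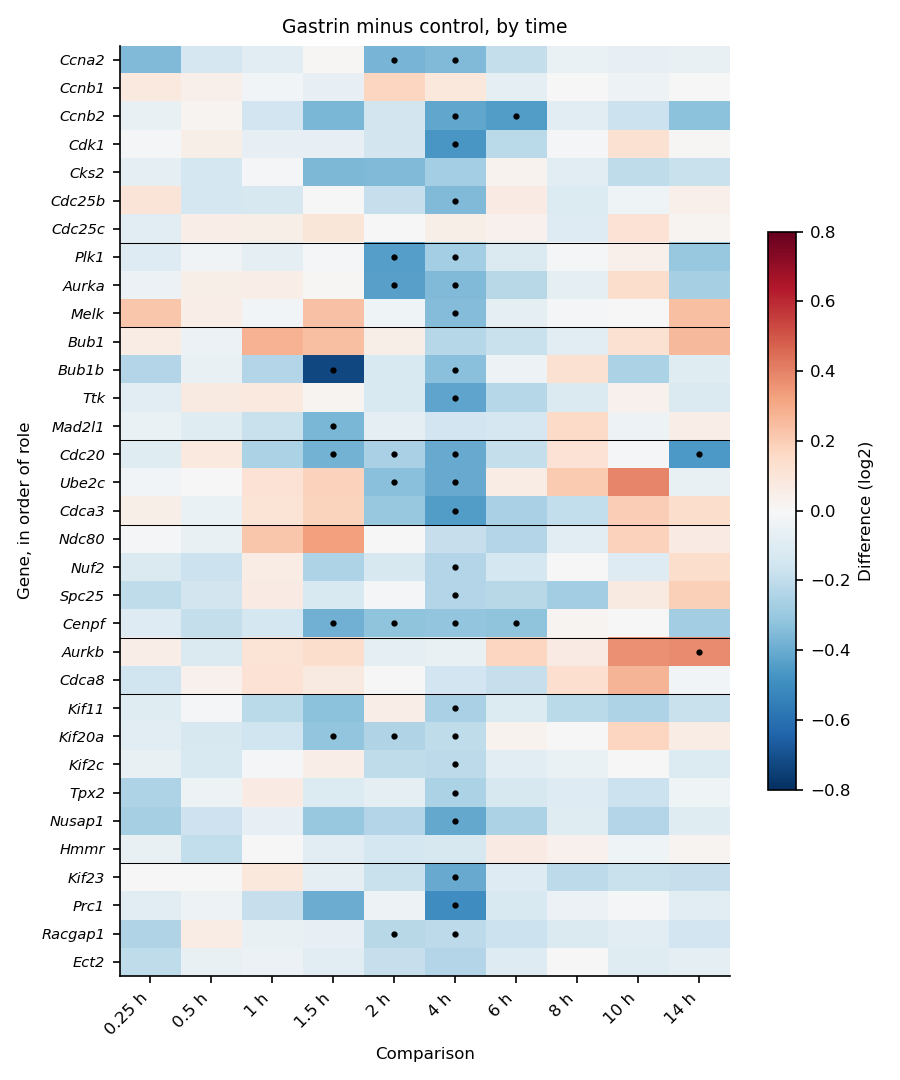
Fitted difference between gastrin and control (log2, colour) for the 33 genes in order of role at each time; dots mark an adjusted p under 0.05 in limma, and lines separate roles. The column at 4 h holds 23 dots, all lower, and the columns at 8 and 10 h hold none. The 4 h column rests on 5 pairs and those at 0.25, 0.5, 1.5, 8 and 10 h on 2 each. Counts of dots are therefore not comparable between these times.

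At 10 and 14 h few mitotic genes passed. One gene was higher (3.78% of probes higher) and 1 lower (3.74% lower), and the median of the 33 was -0.04. At 14 h alone the same 2 genes passed, each in its direction (0.706% higher and 0.355% lower). The pairs varied: the mean over the 33 genes was 0.04 and -0.03 at 10 h and -0.05, 0.02 and -0.11 at 14 h, where 25 genes were lower in batch 3. The single pair at 12 h, in batch 2, had a mean of -0.11 with 23 genes lower, without a test. Aurkb, the kinase of the chromosomal passenger complex, was at 9.78 and 9.90 in controls and 10.22 and 10.18 with gastrin at 10 h. At 14 h it was at 10.18, 9.69 and 10.39 in controls of batches 1 to 3 and at 10.69, 10.14 and 10.57 with gastrin. It was higher in 5 of 5 pairs by 0.37 ± 0.07 (limma adjusted p = 0.00197), and without batch 2 it did not pass (0.31, adjusted p = 0.387).

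Cdc20, which activates the anaphase promoting complex, was near equal at 10 h, with 9.38 and 9.71 in controls and 9.40 and 9.66 with gastrin. At 14 h its controls were at 9.66, 9.57 and 9.77 and its gastrin samples at 9.21, 9.23 and 9.19, which do not overlap. The mean over both times was -0.24 ± 0.06 (n = 5, limma adjusted p = 0.0171), and it was lost without batch 2 or 3 and with the array score as a covariate.

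Tested directly, the effect of gastrin at 10 and 14 h was above that at 4 to 8 h in 2 genes, Cdca3 by 0.47 ± 0.10 and Spc25, of the Ndc80 kinetochore complex, by 0.38 ± 0.09 (limma adjusted p of 0.0153 and 0.0214, 1.01% of probes higher and 0.555% lower). The effect at 4 to 8 h was below that at 0.5 to 2 h in 3 genes, Ndc80 by -0.29 ± 0.08, Cdca3 by -0.28 ± 0.08 and Ttk by -0.27 ± 0.07 (2.97% of probes lower and 2.68% higher). These 5 differences were lost without batch 2, without batch 3 and without the arrays of high score. Whether the effect at 4 h differed from that at 2 h or at 6 h was not tested.

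The effect of gastrin also differed between sets of batches. At the shared times of 1, 2, 4 and 6 h, it was higher in batches 4 to 6 than in batches 2 and 3 for 9 genes and lower for 2 (8.43% and 7.65% of probes). The share of members called lower was near that of all probes. Bub1b differed by 0.41 ± 0.06, Cks2 by 0.34 ± 0.07 and Ccnb2 by 0.32 ± 0.07, and Ndc80 by -0.28 ± 0.06 and Cdca8, of the passenger complex, by -0.20 ± 0.06, each with an adjusted p in limma of 0.0231 or less. A fit with the score added called 0 members, as did a fit without the block. Without batch 2 there were 4 and without batch 3 there were 5.

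With cycloheximide, calls went both ways early and were nearly all lower late, and the difference between early and late was not tested. At 1 and 2 h, 5 genes were higher and 2 lower than control (6.55% and 6.85% of probes), with a median of 0.10. The share of members called lower there was near that of all probes. At 4 and 6 h 23 were lower and 1 higher (13.3% and 12.3% of probes), with a median of -0.30 against -0.011 for all probes.

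Bub1b rose early. At 1 h it was at 8.81 and 8.72 in the controls of batches 4 and 5 and at 9.38 and 9.27 with cycloheximide, and at 2 h at 8.39 and 8.25 against 8.98 and 8.92. It was higher in 4 of 4 pairs by 0.60 ± 0.10 (limma adjusted p = 0.000291). Aurka, a kinase of the spindle poles, was at 9.17 and 9.34 in controls and 9.79 and 9.81 with cycloheximide at 1 h, and at 9.42 and 9.16 against 9.90 and 9.67 at 2 h, a rise of 0.52 ± 0.12. No control of either gene reached the cycloheximide value of its batch and time.

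Kif11, the motor that separates the spindle poles, changed at 2 h alone: it was at 10.99 and 10.76 against 11.002 and 10.83 at 1 h, and at 10.20 and 9.93 against 10.84 and 11.01 at 2 h. Cdca3 was at 8.93 and 8.83 in controls and 8.79 and 8.57 with cycloheximide at 1 h, and at 9.68 and 9.19 against 8.78 and 8.33 at 2 h. Over both times Kif11 rose by 0.45 ± 0.12 and Cdca3 fell by 0.54 ± 0.13 (limma adjusted p of 0.0154 and 0.00694). Both differences come mainly from 2 h, where the controls of batches 4 and 5 had high array scores. With the score as a covariate Kif11 was at 0.21, Cdca3 at -0.37 and Aurka at 0.46, none past the threshold, and 2 of the 33 genes passed. The count was 2 without batch 4 and 1 without batch 5.

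At 4 and 6 h Cdk1 showed the largest fall with cycloheximide. At 4 h it was at 11.82, 12.11 and 11.90 in the controls of batches 4 to 6 and at 11.70, 11.18 and 11.02 with cycloheximide. At 6 h it was at 11.97 and 11.90 in controls and at 10.50 and 9.70 with cycloheximide. All cycloheximide values were below all controls, lowest at 6 h, and the mean fall was -1.24 ± 0.11 (n = 5, limma adjusted p = 2.16e-08, a ratio of 2.36 on a plain log2 scale).

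Aurkb was at 10.80, 10.69 and 10.81 in controls and at 10.55, 9.91 and 9.80 with cycloheximide at 4 h, and at 10.78 and 10.77 against 9.32 and 9.27 at 6 h. Its fall was -1.08 ± 0.09 (limma adjusted p = 1.29e-08). Ube2c, the ubiquitin conjugating enzyme of the anaphase promoting complex, was at 11.20, 11.37 and 11.24 against 10.81, 10.40 and 10.32 at 4 h and at 11.79 and 11.39 against 10.61 and 10.17 at 6 h, a fall of -0.98 ± 0.08 (adjusted p = 6.08e-09 in limma). In both genes the groups did not overlap.

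Plk1 fell by 0.77 on the log2 scale, with a standard error of 0.10, and Ccnb1 was at -0.05 ± 0.06 and did not pass. Cdc25c was the single gene higher, by 0.20 ± 0.05 (limma adjusted p = 0.00392), on a probe near the median level. Ccnb2, Aurka and Bub1b were the 3 genes called higher at 1 and 2 h and lower at 4 and 6 h. Without batch 5 the count at 4 and 6 h was 8, and without the block 12. The mean over the 33 genes in batch 4 was -0.09 at 4 h and -0.32 at 6 h, against -0.43 and -0.58 in batch 5.

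**Figure D4:**
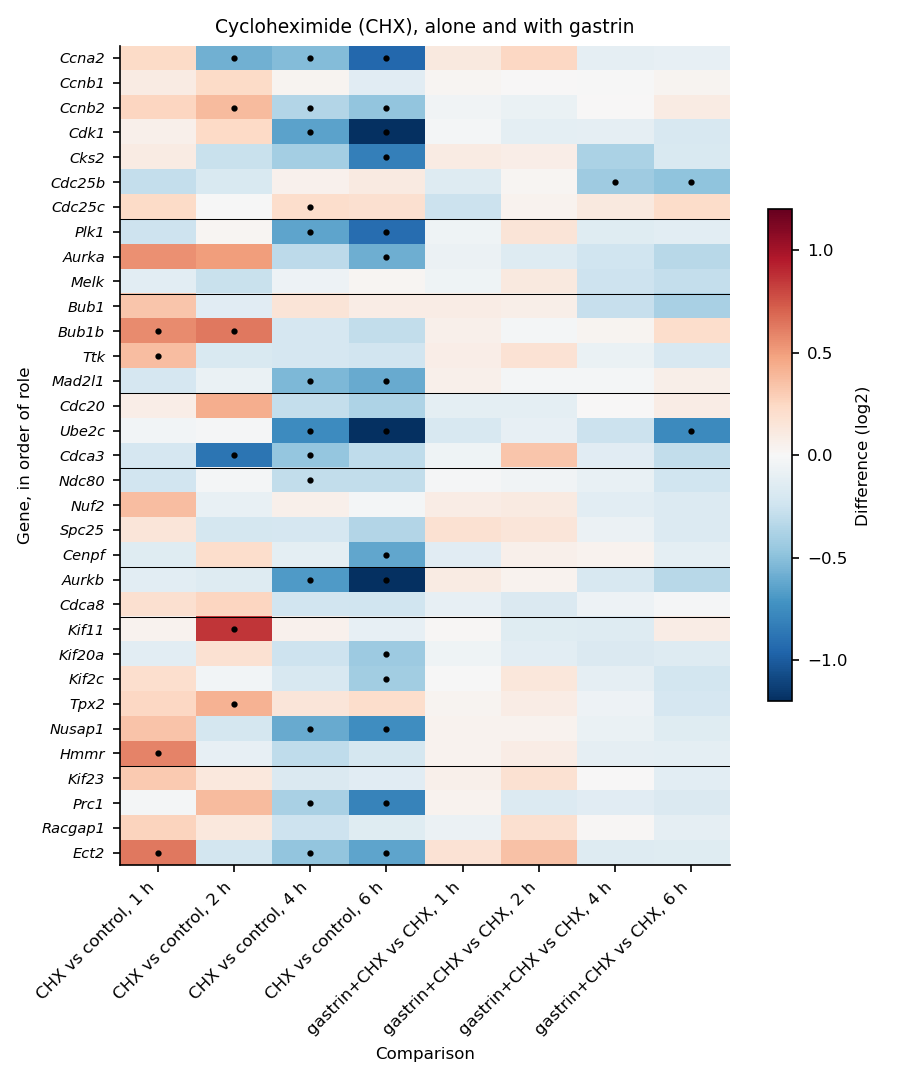
Fitted difference (log2, colour) for the 33 genes in order of role at 1, 2, 4 and 6 h, of cycloheximide (CHX) against control on the left and of gastrin with cycloheximide against cycloheximide on the right; dots mark an adjusted p under 0.05 in limma. Cycloheximide alone gives 12 lower genes at 4 h and 15 at 6 h (8.01% and 9.41% of probes), and on the right only Cdc25b and Ube2c carry dots.

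Gastrin added to cycloheximide was compared with cycloheximide alone. At 1 and 2 h limma called 0 of 33, with 1 at an unadjusted p under 0.05 (0.071% of probes higher and 0.00888% lower). At 4 and 6 h 2 genes were lower and 0 higher (1.31% of probes lower and 2.17% higher), and 27 of 33 differences were below 0 with a median of -0.14. In all 5 pairs 15 genes were lower, as were 7.46% of probes. In the same batches without cycloheximide, the effect of gastrin at 4 and 6 h also had a median of -0.14, with 2 genes lower and 15 at an unadjusted p under 0.05 (1.45% of probes lower and 1.74% higher). The difference between the 2 effects had a median of 0.06 over the members, and 1 gene passed, lower (0.155% of probes lower and 0.213% higher). These comparisons share their control and cycloheximide samples. A difference that misses the threshold does not show that the effects are alike. For Cdk1 it was 0.20 ± 0.16 and for Plk1 0.00 ± 0.14.

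The gene that passed was Cdc25b, a phosphatase that activates Cdk1. Among the members Cdc25b has a dim probe, with a mean level of 6.96 against 6.40 for the median probe. At 4 h it was at 7.45, 7.37 and 7.10 in controls and 7.04, 7.21 and 6.58 with gastrin in batches 4 to 6, and at 7.48, 7.57 and 7.02 with cycloheximide against 7.09, 7.13 and 6.57 with both. Gastrin values were lower in all of these pairs, by -0.41, -0.16 and -0.52 without and by -0.39, -0.44 and -0.45 with cycloheximide, and the difference at 4 h alone was not tested. At 6 h the controls were at 7.33 and 7.09 and the gastrin samples at 7.57 and 7.35, above them, while cycloheximide gave 7.35 and 7.28 and both together 6.96 and 6.71.

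The effect of gastrin on Cdc25b beside cycloheximide was therefore -0.45 ± 0.05 over 4 and 6 h (n = 5, limma adjusted p = 1.05e-05), and the difference from that without cycloheximide was -0.40 ± 0.08 (adjusted p = 0.0177). In batches 2 and 3 gastrin alone at 6 h gave -0.10 and -0.14. Without batch 4 the difference did not pass (-0.47, adjusted p = 0.216), nor without batch 5 (-0.30, adjusted p = 0.608). Cdc25b was also lower with gastrin alone at 1 and 2 h in batches 4 and 5, by -0.42 ± 0.06 and in 4 of 4 pairs, the single gene of the 33 called there (1.36% of probes lower). At 1 h that fit uses one of 2 control and gastrin pairs in each batch, with -0.46 and -0.40, and the other pair gave 0.0027 and 0.0034. Without batch 5 the effect beside cycloheximide was -0.41 with an adjusted p of 0.0507 in limma. Ube2c was the other gene lower with gastrin beside cycloheximide, by -0.51 ± 0.08 (limma adjusted p = 0.000301), without batch 5 by -0.56 with an adjusted p of 0.135, and its difference from the effect without cycloheximide did not pass (-0.35 ± 0.11, adjusted p = 0.223).

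Other gene lists are set beside these changes, and the shares of all probes called in the same comparisons apply to each list. With gastrin at 4 h 3.47% of probes were lower and 3.48% higher. In untreated cells at 8 to 14 h the shares were 6.64% and 5.78%. With cycloheximide at 4 and 6 h they were 13.3% and 12.3%. Of 53 further mitosis genes, 21 were lower and 0 higher with gastrin at 4 h, led by Stmn1, which destabilises microtubules (-0.63 ± 0.14), Gtse1 (-0.61 ± 0.10) and the motor Kif15 (-0.47 ± 0.09). In untreated cells at 8 to 14 h 24 of them were lower and 1 higher, and with cycloheximide at 4 and 6 h 23 were lower and 1 higher. Fbxo5, an inhibitor of the anaphase promoting complex, fell most with cycloheximide (-1.73 ± 0.12).

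Of 37 replication genes, 29 were lower and 0 higher with gastrin at 4 h, led by the helicase subunits Mcm6 (-0.78 ± 0.11) and Mcm3 (-0.73 ± 0.09) and the polymerase subunit Pole2 (-0.67 ± 0.09). In untreated cells at 8 to 14 h, where 27 of the 33 mitotic genes were lower, 2 of the 37 were, and 0 higher. That is near the share of all probes called lower (6.64%). At 10 and 14 h of gastrin 19 of the 37 were higher and 0 lower (3.78% of probes higher and 3.74% lower), where 1 of the 33 was higher. The rises were led by Gins1 (0.58 ± 0.08), Orc1 (0.53 ± 0.09) and Pola2 (0.40 ± 0.08). The effect of gastrin with cycloheximide at 4 and 6 h was above that without it in all 37 replication genes by sign. The median was 0.34, and 4 were past the threshold (0.213% of probes higher). The lists were not tested against each other.

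Among 25 regulators of the G2 and M program, 3 were lower and 0 higher with gastrin at 4 h, E2f1 (-0.59 ± 0.09), the kinase Wee1, which holds Cdk1 inactive (-0.42 ± 0.08), and the phosphatase Cdc25a (-0.35 ± 0.09). In untreated cells at 8 to 14 h 4 were higher and 6 lower, and with cycloheximide at 4 and 6 h 9 were higher and 8 lower. The growth arrest genes Gadd45b (1.71 ± 0.19) and Gadd45a (1.42 ± 0.18) led the rises with cycloheximide, and Wee1 fell by 1.01 on the log2 scale with a standard error of 0.16. At 10 and 14 h of gastrin Mybl2, the B-Myb factor of the MuvB complex, was higher by 0.34 ± 0.07.

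**Figure D5:**
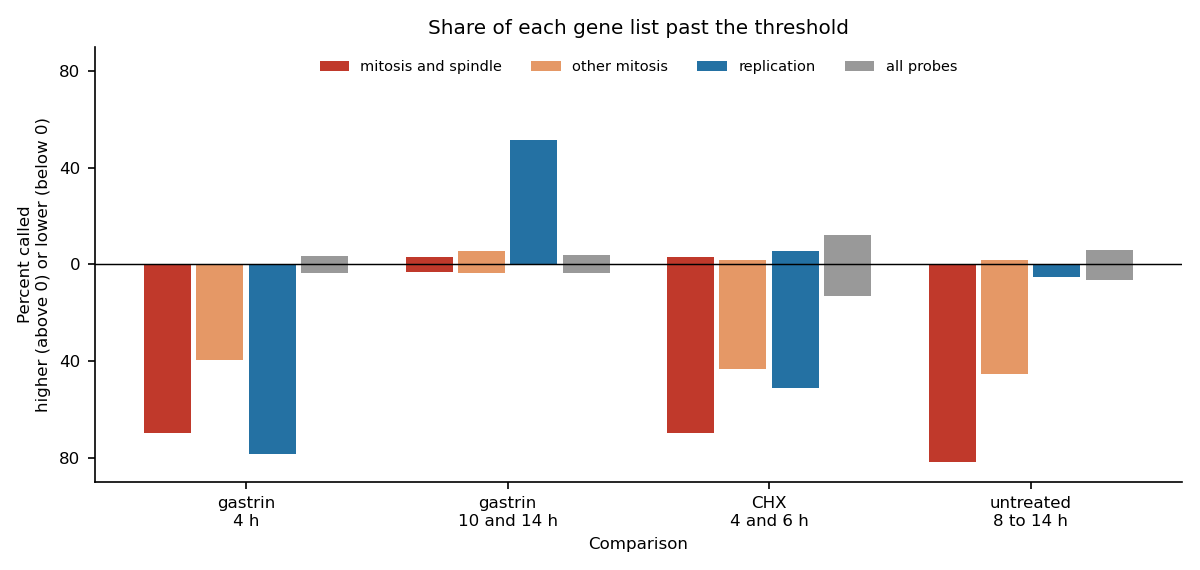
Percent of the genes of each list, and of all probes, past an adjusted p of 0.05 in limma, higher (above 0) or lower (below 0), in 4 comparisons (CHX, cycloheximide). Mitosis lists are lower with gastrin at 4 h, with cycloheximide and in untreated cells. Replication genes are lower with gastrin at 4 h and higher at 10 and 14 h. In untreated cells 2 of 37 are lower, near the share of all probes (6.64%).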

How the data were processed

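Total RNA of AR42J cells was hybridised to Illumina bead arrays. The log2 values deposited by the authors run from 5.51 to 14.84, and lumi 2.4.0 is named per the submitters' processing notes. Array medians lay between 6.403 and 6.406. No source used here says if the log2 is plain or variance-stabilised. Precision is limited by how many arrays there are.

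Groups came from the labels. Gene names came from the platform annotation: 13793 probes have 1 symbol, 0 have several and 8730 are unnamed, and 13752 named probes matched the GRCr8 gene table by Entrez identifier and 41 did not. The tests used lmFit and eBayes of limma 3.58.1 (R 4.3.3), and p-values were adjusted by Benjamini-Hochberg across 22523 probes, on 31 gastrin pairs, on batches 4 to 6 for cycloheximide and on the controls of batches 2 and 3 for untreated cells. Technical replicate arrays of batch 6 (deviations from the mean over arrays correlated at 0.953) were averaged. At 1 h batches 4 and 5 have control and gastrin arrays in 2 title series, with and without a running number, correlated at only 0.357 to 0.439, with mean absolute differences of 0.251 to 0.543 over the members. They were averaged in the gastrin fits, and the numbered series, which holds all 4 stimuli, was used for cycloheximide. All 4 h arrays of batches 4 to 6 are unnumbered. Batch and time together formed the block, a pairing that comes from the batch in the labels. Control and gastrin samples that share a batch and time deviated together from the mean over batches at that time, with correlations of 0.199 to 0.923. Where only batches 2 and 3 have pairs, the correlations were 0.199 to 0.346 and are the same for both by construction. Differences between batches alone make such correlations positive. They therefore cannot tell a block of batch and time from batch as an additive term. The scripts were tested on simulated data.

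The array score is the mean signed deviation over 500 probes outside the members with the largest difference between the 2 h and other controls in batches 4 and 5, taken from each probe's median over arrays, and 17 of 90 arrays were above the limit of 0.149. The members, the lists and the tests were chosen with earlier results of these data known. The lists besides the members hold other mitosis genes, regulators, replication genes, and acinar, stromal, and immune and endothelial markers. With gastrin at 4 h, 6 of 22 acinar genes were higher and 0 lower, and 0 of 10 stromal and 0 of 9 immune and endothelial markers were called by limma, with 0 and 0 at an unadjusted p under 0.05. Genes given by sample were Ccnb1, Cdk1 and Plk1 and the 3 largest rises and falls past the threshold in each comparison (some by their fitted difference alone), and up to 3 genes each way of other lists. Prc1 and the genes called at single times were named after their values were seen. Alternatives changed the block, scaling, probe choice, filter, array score, batches and spread.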

Additional observations from a re-analysis of the deposited data

Results flagged for a closer look

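The pair differences of the named genes and of the mean of the members at 1, 2, 4 and 6 h formed 88 groups of 4 or 5. In 6 of them one pair was far from the others. Chance gives about 1 in 20, and 6 of 88 is near that share. The groups share arrays and are not independent. At 1 h Cdc20 differed by -0.109 in batch 5, against -0.309 to -0.288 in the other batches, and Kif20a by -0.366 in batch 4, against -0.108 to -0.068. At 2 h Spc25 differed by -0.155 in batch 2, against 0.026 to 0.047. At 4 h Aurkb was higher by 0.378 in batch 5, against -0.277 to -0.104 in the others, and Ttk lower by -0.714 in batch 3, against -0.392 to -0.312. At 6 h Plk1 differed by -0.365 in batch 3, against -0.042 to -0.020.

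The effect of gastrin differed between windows of time, by limma's test of the difference itself, in Cdca3 (0.47) and Spc25 (0.376) for 10 and 14 h against 4 to 8 h, and in Ttk (-0.266), Cdca3 (-0.283) and Ndc80 (-0.29) for 4 to 8 h against 0.5 to 2 h. As given above, these differences between windows were lost without batch 2, without batch 3 and without the arrays of high score. For Cdc25b at 4 and 6 h the effect of gastrin differed with cycloheximide by -0.399, which did not pass without batch 4 or without batch 5.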

How the results depend on the processing

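Counts of the 33 members called are given here, as for the alternative fits above, without the share of all probes called in the same fit. A change in such a count can follow the number of calls over all probes and need not be particular to the members. With no replicate block, the count was 0 for gastrin at 0.5 to 2 h, at 4 to 8 h, at 10 and 14 h, for both differences between windows, for all single times together (40 with the block), for gastrin beside cycloheximide, for its difference from gastrin alone and for the difference between batch sets. It was 2 for cycloheximide at 1 and 2 h, 12 at 4 and 6 h and 5 for untreated cells at 4 and 6 h. Batch as an additive term gave 1 for 0.5 to 2 h, 4 for 4 to 8 h, 1 for 10 and 14 h, 0 for both differences between windows, 0 for the difference made by cycloheximide, 2 between batch sets and 12 over single times. The array score as a covariate gave 3 for 0.5 to 2 h, 1 for 10 and 14 h, 2 for cycloheximide at 1 and 2 h, 0 for untreated cells at 4 and 6 h and 0 between batch sets, where Ccnb2 turned to -0.033. Without arrays of high score the counts were 0 for 0.5 to 2 h, 1 for 10 and 14 h, 0 for late against 4 to 8 h, 1 for 4 to 8 h against 0.5 to 2 h and 5 between batch sets. Leaving out dim probes gave 12 for 0.5 to 2 h. One value per batch gave 0 for 0.5 to 2 h, 7 and 0 for the later and earlier difference between windows, 12 and 12 for cycloheximide early and late, 6 for gastrin beside cycloheximide, 0 for its difference, 26 for untreated cells at 4 and 6 h and 2 between batch sets.

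Leaving out one batch gave 0 to 14 at 0.5 to 2 h, 0 to 17 at 4 to 8 h, 0 to 4 at 10 and 14 h, 0 to 3 for late against 4 to 8 h, 0 to 6 for 4 to 8 h against 0.5 to 2 h, 13 to 44 over single times, 1 to 7 and 8 to 24 for cycloheximide early and late, 0 to 2 for gastrin beside cycloheximide, 0 to 1 for its difference and 4 to 12 between batch sets. The cause of these changes was not tested. Untreated cells at 8 to 14 h had 25 to 27 genes lower under every alternative run. Without batch 2 or 3 the untreated comparison has no residual degrees of freedom and was not run. Signal over background of single probes is unknown.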

Other observations

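The 2 arrays of batch 3 at 12 h whose labels contradict each other had mean levels of the 33 genes, relative to the mean over all arrays, of -0.33 and -0.29. Their array scores were 0.016 and 0.475.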
